A study of Mus musculus with 2 samples.

Results

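The genes described here encode the subunits, activators and assembly factors of the constitutive proteasome. They were chosen by name, as the array's probes whose gene symbol starts with Psma, Psmb, Psmc, Psmd, Psme, Psmf or Psmg and a digit, without the immunoproteasome genes Psmb8, Psmb9 and Psmb10. This gave 63 of 41174 gene probes, under 41 of 27962 gene names. The core counted 15 genes (Psma and Psmb), the cap 20 (Psmc and Psmd), and the activators and their inhibitor 5 (Psme and Psmf). The remaining gene, Psmc3ip, meets the letters of the rule but encodes a partner protein of meiotic recombination and no subunit, so it was counted and kept out of the group medians. No probe carried a Psmg name, although the assembly chaperone genes Psmg1, Psmg2 and Psmg3 were present under older names and are given with the neighbouring genes.

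The study compared immature B cells of mouse bone marrow that do or do not recognise a self antigen. Autoreactive cells came from BALB.B mice carrying the 3-83Igi receptor knock-in, a Rag1-/- genotype and the H-2b haplotype, whose class I molecules this receptor binds. Non-autoreactive cells came from BALB/c mice with the same 3-83Igi receptor and the H-2d haplotype, and no Rag1 change is listed for them. All mice were untreated, and pooled B220+ cells that lacked CD23, CD43 and IgD on the surface were sorted. A pool of autoreactive RNA (Cy5) was hybridised with non-autoreactive RNA (Cy3) on each of 2 arrays. The series design counts 2 biological replicates per group, but the labels give replicate numbers to the autoreactive pools alone, so p-values cover the spread between these arrays. Dye, strain, H-2 haplotype and the Rag1 genotype followed the groups and cannot be told apart from autoreactivity.

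The proteasome is the large protease that degrades proteins marked with ubiquitin. Its core is a barrel of alpha and beta rings, and the beta subunits Psmb5, Psmb6 and Psmb7 hold the active sites. The cap consists of a base, whose Psmc ATPases unfold the substrate, and a lid, which removes the ubiquitin. In immune cells the immunoproteasome subunits can take the place of the catalytic ones, which changes the peptides presented by class I molecules. The finished particle holds its subunits in fixed proportions, and transcription factors of the Nfe2l family, NF-Y and ETS types are known to act on many of their promoters in mammals.

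RefSeq promoter windows (GRCm38.p6, from 250 bases before to 50 bases after the start of the gene) were found by symbol for 33 of the 41 genes, with 35 windows. They were searched on both strands for 3 motifs: the core of the antioxidant response element bound by Nfe2l factors (TGANNNNGC), the CCAAT box bound by NF-Y, and an ETS site (CCGGAAG). TGANNNNGC was found in 19 of the 35 windows (54.3%), against 41.3% of all 32851 windows. CCAAT was found in 13 (37.1%), against 37.4% of all windows. CCGGAAG was found in 14 (40.0%), against 8.86% of all windows. The median G and C content was 59.0% for the proteasome windows, against 52.7% for all windows, and the part of base composition in these shares was not tested. The 4 windows below belong to the gene furthest above 0 on the loess scale used here (Psma2), the 2 genes furthest below it on that scale (Psmc1 and Psmd2) and a catalytic subunit gene (Psmb6). With the deposited ratios the highest gene was Psmd10 (0.30) and the lowest Psmd3 (-0.55). Capitals mark the motif matches, none of which overlap, and a capital CTTCCGG is CCGGAAG read on the other strand.
Psma2, chr13:14612992-14613291, plus strand, with a CCAAT box 54 bases before the start: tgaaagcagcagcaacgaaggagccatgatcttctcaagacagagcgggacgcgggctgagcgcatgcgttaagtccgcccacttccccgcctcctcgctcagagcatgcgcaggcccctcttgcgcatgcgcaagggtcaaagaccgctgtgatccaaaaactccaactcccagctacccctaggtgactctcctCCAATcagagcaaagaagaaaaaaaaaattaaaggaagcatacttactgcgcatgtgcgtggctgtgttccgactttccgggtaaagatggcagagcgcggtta
Psmc1, chr12:100109952-100110251, plus strand, with a CCAAT box 175 bases and an ETS site 28 bases before the start: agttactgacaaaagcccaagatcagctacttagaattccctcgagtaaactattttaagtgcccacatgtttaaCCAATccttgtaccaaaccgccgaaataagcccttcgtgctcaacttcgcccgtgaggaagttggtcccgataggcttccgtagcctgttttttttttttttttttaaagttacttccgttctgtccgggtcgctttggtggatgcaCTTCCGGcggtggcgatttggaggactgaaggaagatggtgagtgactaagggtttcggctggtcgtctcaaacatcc
Psmd2, chr16:20651402-20651701, plus strand, with an ETS site 26 bases before the start: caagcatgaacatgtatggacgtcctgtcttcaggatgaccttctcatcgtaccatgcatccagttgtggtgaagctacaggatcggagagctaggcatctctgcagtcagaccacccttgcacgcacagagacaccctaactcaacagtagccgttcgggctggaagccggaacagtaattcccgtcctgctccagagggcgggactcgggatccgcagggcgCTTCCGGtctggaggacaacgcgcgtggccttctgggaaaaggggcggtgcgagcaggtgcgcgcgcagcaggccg
Psmb6, chr11:70525107-70525406, plus strand, with TGACGGAGC as the antioxidant response element core 9 bases before the start: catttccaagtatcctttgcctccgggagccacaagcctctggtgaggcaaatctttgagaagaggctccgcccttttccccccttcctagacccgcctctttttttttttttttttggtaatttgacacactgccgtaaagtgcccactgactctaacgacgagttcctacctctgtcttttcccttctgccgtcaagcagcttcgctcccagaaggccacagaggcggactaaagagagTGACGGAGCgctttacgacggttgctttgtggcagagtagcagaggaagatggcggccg
A match describes these letters and is no evidence of binding. The median log2 ratio of autoreactive over non-autoreactive cells was 0.05 for genes with TGANNNNGC in a window, against -0.02 for the 15 genes without it. It was 0.08 with CCAAT, against 0.02 for the 20 genes without it. It was -0.02 with CCGGAAG, against 0.08 for the 20 genes without it. These differences were not tested.

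In a channel, 54.1% to 57.4% of the spots exceeded background clearly, and saturation affected no probe. All 10 markers of the B lineage passed the filter on signal, being well above background in at least 1 channel of each array. Ratios are log2 of autoreactive over non-autoreactive after background correction and loess, a smooth curve that centres the ratios at 0 over the whole range of brightness. Each error is the SE from limma's fit over the 2 arrays. Across all 15228 genes tested, array 1 and array 2 had r = 0.71 and rho = 0.61 between their ratios, a description across genes that share RNA and arrays. In all, 61 of the 63 proteasome probes and all 41 genes passed the filter on signal, and a gene is given by its brightest probe. A gene's intensity may be compared between the groups, but not with that of another gene's probe.

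No proteasome gene differed between autoreactive and non-autoreactive cells at an adjusted p under 0.05. By limma with Benjamini-Hochberg adjustment, 0 of 41 were called higher, against 3.49% of all genes, and 0 were called lower, against 2.6%. At an unadjusted p under 0.05, 1 was higher (Psma2), against 12% of all genes, and 2 were lower (Psmc1 and Psmd2), against 12.3%. With the deposited ratios 0 were called either way, against 1.98% of all genes higher and 2.04% lower, and 1 proteasome gene had an unadjusted p under 0.05. With a trended and robust variance 0 were called, against 2.34% higher and 0.0722% lower, and 1 had an unadjusted p under 0.05. The channels were also fitted separately, not paired by array. Then 0 were called, against 0.696% higher and 0.453% lower, and 2 had an unadjusted p under 0.05. With no filter on dim probes 7 had an unadjusted p under 0.05. The shares of all genes at that unadjusted p are not given for these alternatives, so their counts were not compared with all genes. The smallest adjusted p among the 41 genes was 0.116 (limma, n = 2 arrays). A p that misses the threshold does not show that the genes were alike, so the intervals are given too. On the loess scale the 95% interval of the ratio lay inside a 2-fold change either way for 41 of 41 genes, against 91.3% of all genes. It lay inside 1.5-fold for 32 of 41 genes (78%), against 63.9% of all genes. Over the 41 genes the intervals reached from -0.77 to 0.69. These limits are relative to genes of like brightness, because median centring in place of loess moved the proteasome genes upward, as given below.

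**Figure D1:**
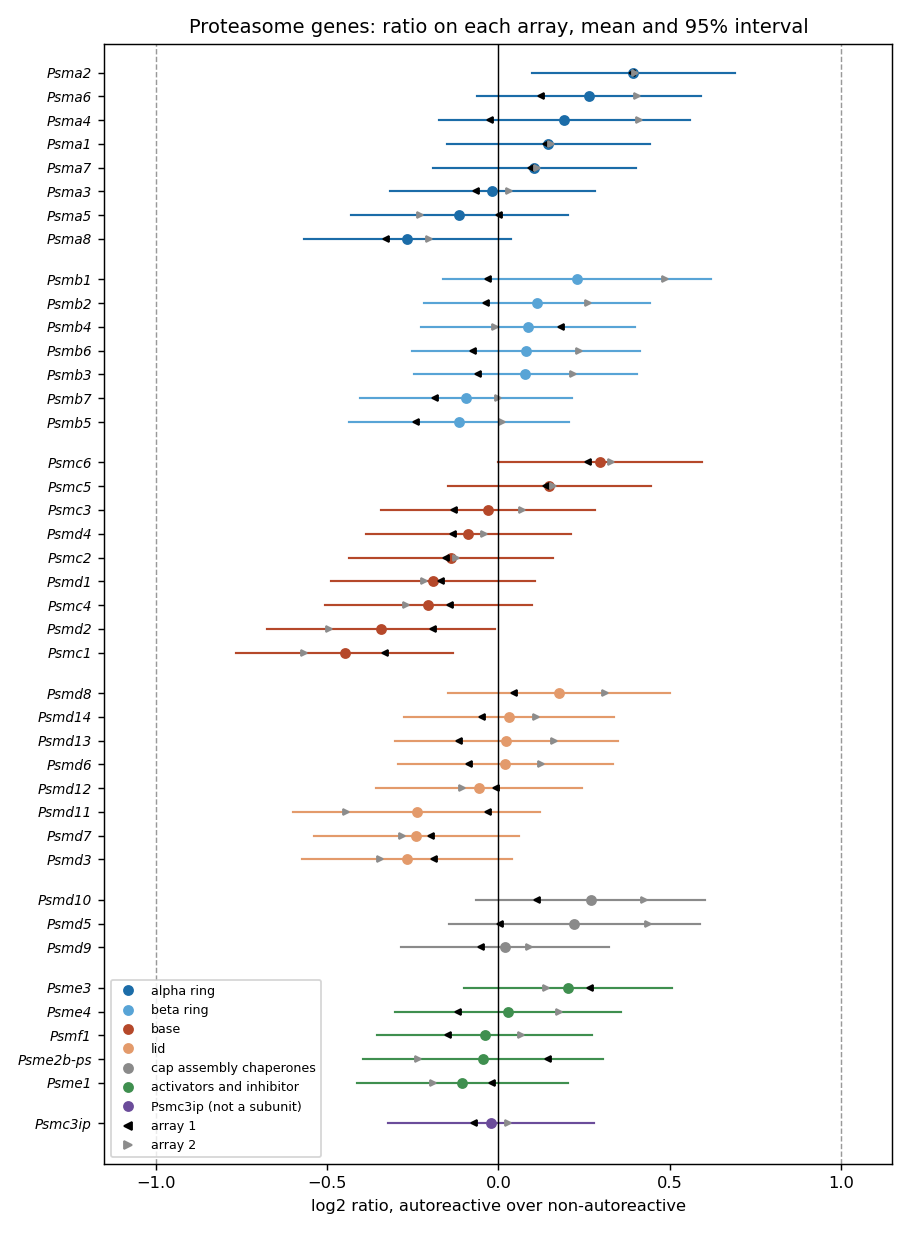
Log2 ratio of autoreactive over non-autoreactive cells for the 41 genes, by part of the proteasome. Circles give the mean of the arrays with its 95% interval, triangles pointing left array 1 and pointing right array 2, and dashed lines a 2-fold change; all intervals lie between -0.77 and 0.69.

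The ratios of the proteasome genes were spread less widely than those of all genes. Their SD was 0.19, against 0.40 for all genes tested. It was 0.36 for the 2417 genes whose intensity lay between the quartiles of the proteasome genes. On the loess scale each of the 41 means lay within 0.5 of 0, against 13307 of 15228 genes tested and 2165 of the 2417. The median was 0.02 for the proteasome genes and 0.00 for all genes, and 21 of 41 lay above 0, against 49.7% of all genes. On neither array was any of them 1.5-fold higher or lower, while 4.41% of all genes were higher and 3.22% lower by that much on array 1, and 7.35% and 9% on array 2. The arrays placed the proteasome genes differently. On array 1, 13 of 41 were above 0, against 51.8% of all genes, and on array 2, 25 were, against 49%. The ratio on array 2 exceeded that on array 1 for 28 of 41 genes (68.3%), against 47.9% of all genes. Ratios were above 0 on both arrays for 10 genes (24.4%), against 36.1% of all genes, and below 0 on both for 13 (31.7%), against 35.3%. The other 18 genes changed side between the arrays. Among the 2417 genes of like brightness, 1014 had a mean above 0, 708 were above 0 on both arrays and 1034 below 0 on both. Across the 41 genes, array 1 and array 2 had r = 0.54 and rho = 0.54 between their ratios.

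Markers of other cells and of proliferation also differed between the arrays. For the 7 markers of T and NK cells, array 1 gave a median ratio of -0.14, and array 2 one of -1.08. The mean log2 intensity of these markers was 9.18 and 8.29 in autoreactive cells, against 9.25 and 9.44 in non-autoreactive cells. The 5 markers of plasmacytoid dendritic cells had median ratios of -0.73 and -2.33. Their mean intensity was 11.62 and 10.94 in autoreactive cells, against 12.17 and 12.73 in non-autoreactive cells. The 8 myeloid markers had median ratios of 0.07 and -0.85, and the 6 proliferation markers -0.07 and -0.55. The 6 erythroid markers had -0.53 and -0.46, much alike on the arrays. These medians cover members on both sides of 0 in some lists. By the mean of the arrays, proliferation markers ranged from -0.69 (Top2a) to 0.59 (Pcna). T and NK markers ranged from -1.14 (Gzma) to 0.16 (Cd3e), and myeloid markers from -0.84 (Ltf) to 0.28 (S100a9). Every marker in these lists was well above background in some channel, which does not show signal in every channel. Cd8a stood at 6.208 in autoreactive cells on array 2, under the lowest value marked well above background there (6.212). Limma called 1 myeloid and 2 erythroid markers lower, none of the T and NK, plasmacytoid dendritic and proliferation markers, and 3 of the 10 B lineage markers higher and 2 lower. Of all genes tested, 3.49% were called higher and 2.6% lower. The part of such cells in the proteasome ratios was not tested, and in bulk RNA fewer cells of a type and less RNA per cell cannot be told apart.

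**Figure D2:**
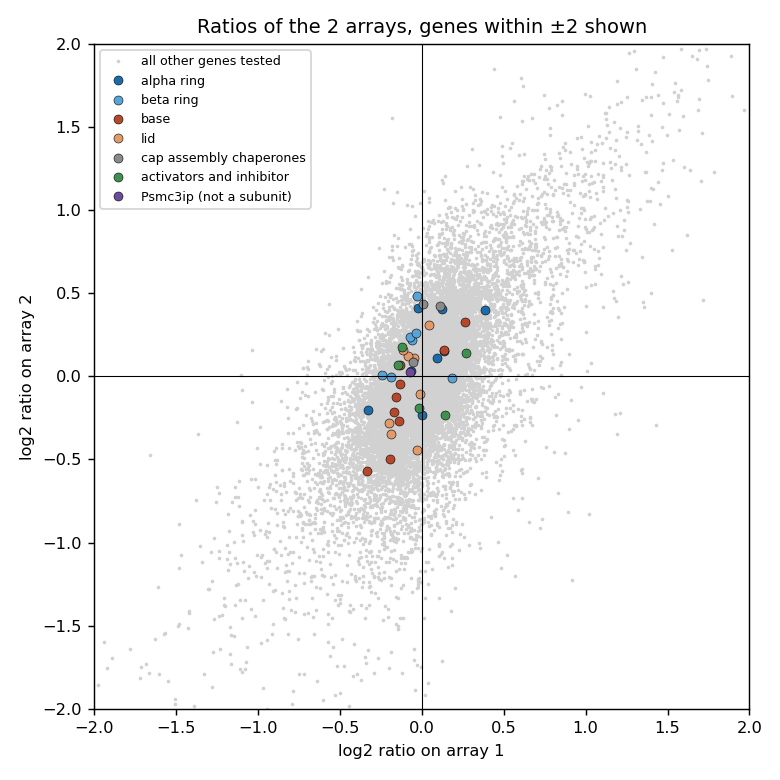
Log2 ratio on array 2 against that on array 1 for the 41 proteasome genes, coloured by part, over all other genes tested in grey (those within 2 of 0). The proteasome genes lie within 0.5 of 0 in their means, as do 13307 of 15228 genes tested, and 18 of 41 changed side between the arrays.

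In the core, 10 of 15 genes lay above 0 and 5 below, and their median was 0.09. Array 1 alone gave -0.03, array 2 alone 0.15 and the deposited ratios -0.03, so the direction of the core is not settled. The alpha ring, whose outer position makes it the gate for substrates, had a median of 0.12 over 8 genes, and 0.01 with the deposited ratios. Psma2, an alpha ring subunit (chromosome 13), had log2 intensities of 15.83 and 15.95 in autoreactive cells on arrays 1 and 2, against 15.44 and 15.55 in non-autoreactive cells. Both autoreactive values were above both non-autoreactive ones. Its log2 ratio was 0.39 ± 0.12 (adjusted p = 0.133 by limma), with a 95% interval of 0.10 to 0.69 and 0.39 and 0.40 on the arrays. It was 0.06 with the deposited ratios (adjusted p = 0.844 by limma), so the size of this ratio depends on the dye normalization. Psma6, another alpha ring subunit, had 15.22 and 14.97 in autoreactive cells, against 15.10 and 14.56 in non-autoreactive cells. These ranges overlapped between the groups, though the ratio was above 0 on each array (0.12 and 0.41, mean 0.26 ± 0.13). Psma4, also of the alpha ring, had ratios of -0.03 and 0.41, and its mean of 0.19 stood beside 0.25 for its second probe. Psma1 and Psma7 were above 0 on both arrays, with means of 0.15 and 0.10, and Psma3 stood at -0.02.

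Below 0 in the alpha ring were Psma5 and Psma8. Psma5 had ratios of 0.00 and -0.23, a mean of -0.11 ± 0.13, and -0.29 with the deposited ratios. Psma8 replaces an alpha ring subunit in the proteasome of the testis and was near background here, with 7.80 and 7.32 in autoreactive cells, against 8.13 and 7.53 in non-autoreactive cells. Its ratio was -0.27 ± 0.12 (adjusted p = 0.261 by limma), with overlapping ranges. Its probe carries no accession matched to a RefSeq gene. Without Psma8, the median of the other 40 genes was 0.02.

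The beta ring had a median of 0.08 over 7 genes, and -0.04 with the deposited ratios. None of its genes was above 0 on both arrays, 1 was below 0 on both, and between the arrays r was 0.12 across these genes. None of the catalytic subunit genes was called. Psmb5, the chymotrypsin-like subunit, had log2 intensities of 13.74 and 13.63 in autoreactive cells, against 13.98 and 13.62 in non-autoreactive cells, a ratio of -0.11 ± 0.13. Psmb6, the caspase-like subunit, had 15.04 and 15.18 in autoreactive cells, against 15.12 and 14.95 in non-autoreactive cells, a ratio of 0.08 ± 0.14. Psmb7, the trypsin-like subunit, had 12.45 and 12.55 in autoreactive cells, against 12.64 and 12.55 in non-autoreactive cells, a ratio of -0.09 ± 0.13. The groups overlapped for Psmb5 and Psmb6, and the autoreactive values of Psmb7 lay below the non-autoreactive ones, on array 2 with a ratio of -0.0023. The 95% intervals of the 3 catalytic genes ran from -0.44 to 0.21, from -0.25 to 0.41 and from -0.40 to 0.22.

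Of the beta ring genes without an active site, Psmb1 differed most between the arrays. It had 15.13 and 15.34 in autoreactive cells, against 15.16 and 14.85 in non-autoreactive cells, which gave ratios of -0.03 and 0.49 (mean 0.23 ± 0.16, or 0.11 with the deposited ratios). Psmb2, Psmb3 and Psmb4 had means of 0.11, 0.08 and 0.09. The second probe of Psmb3 gave -0.17, the widest gap between probes among the 16 genes with several tested probes. Over those 16 genes the probes differed by 0.00 to 0.25, with a median of 0.09, and 12 had all their probes on the same side of 0.

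**Figure D3:**
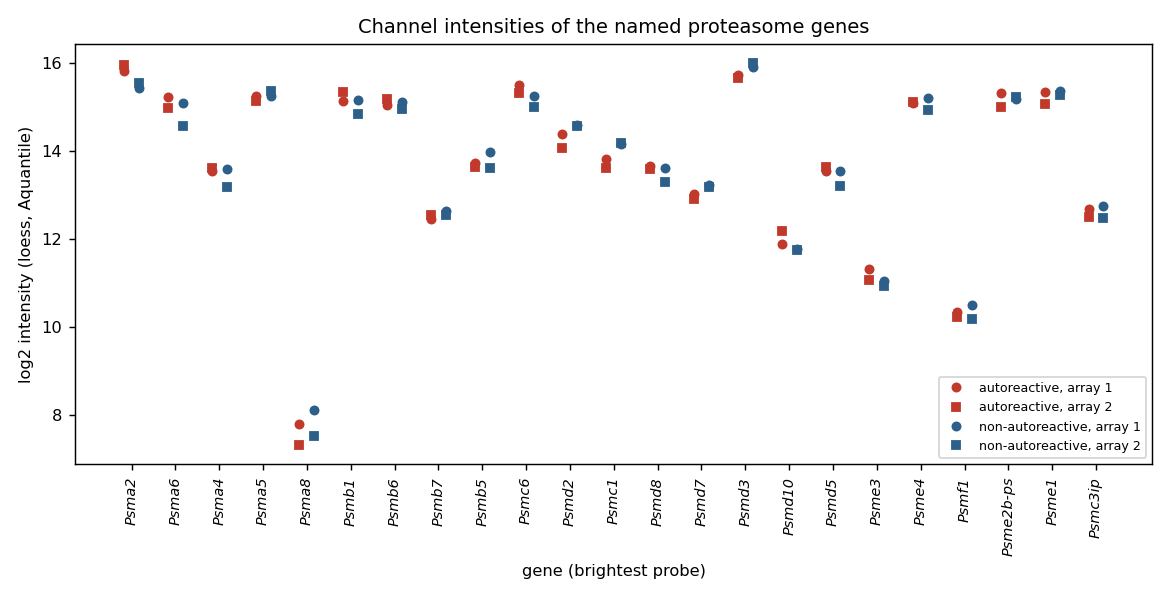
Log2 intensity of each named gene's brightest probe in autoreactive (red, left) and non-autoreactive cells (blue, right), with circles for array 1 and squares for array 2. Intensities compare the groups within a gene; for Psma2 both autoreactive values lie above, and for Psmc1 and Psmd2 both lie below, the non-autoreactive ones.

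In the cap, 9 of 20 genes lay above 0, counting the assembly chaperones Psmd5, Psmd9 and Psmd10, all of them above 0. Without these chaperones, 6 of the 17 base and lid genes lay above 0, and their median was -0.09. Array 1 put these 17 genes at -0.13, and array 2 put them at -0.11. The median of all 20 was -0.04 (-0.10 on array 1 and 0.01 on array 2). It was 0.43 and 0.96 with centring on the tested probes and on all probes. The base had a median of -0.14 over 9 genes, which also turned above 0 under these centrings. Of its 9 genes 7 were below 0 and 6 below 0 on both arrays, and between the arrays r was 0.88 across these genes. Of the 2417 genes of like brightness, 1014 had a mean above 0, 1034 were below 0 on both arrays, and r between the arrays was 0.76. With the deposited ratios the base again stood at -0.14, and under the centrings it stood at 0.39 and 0.92, below the core at 0.71 and 1.24. The 2417 genes stood at 0.41 and 0.95 under the same centrings. The core probes were brighter than those of the base (median log2 intensity 15.07 against 14.10). The part of brightness in the gap between base and core was not tested. Psmc1, an ATPase of the base (chromosome 12), had 13.82 and 13.62 in autoreactive cells, against 14.15 and 14.19 in non-autoreactive cells. Both autoreactive values were below both non-autoreactive ones. The ratios were -0.33 and -0.57, a mean of -0.45 ± 0.13 (adjusted p = 0.116 by limma), and the interval ran from -0.77 to -0.13. Psmd2, a scaffold subunit of the base (chromosome 16), had 14.39 and 14.07 in autoreactive cells, against 14.58 and 14.56 in non-autoreactive cells. These values did not overlap either, and the ratios were -0.19 and -0.49, a mean of -0.34 ± 0.14 (adjusted p = 0.207 by limma) with -0.34 for the second probe as well. Under median centring both genes turned to above 0, Psmc1 to 0.0041 and 0.54 and Psmd2 to 0.18 and 0.72.

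Not all of the base shared this side. Psmc6, an ATPase of the same ring as Psmc1, had 15.51 and 15.32 in autoreactive cells, against 15.24 and 14.99 in non-autoreactive cells. Both autoreactive values were above both non-autoreactive ones, and its ratio was 0.30 ± 0.12 (adjusted p = 0.220 by limma), with 0.07 for its second probe and 0.18 with the deposited ratios. Psmc5 stood at 0.15 and was above 0 on both arrays. The other ATPases Psmc2, Psmc3 and Psmc4 had means of -0.14, -0.03 and -0.20. Psmd1, the other large scaffold, and Psmd4, a ubiquitin receptor, had means of -0.19 and -0.09. The ATPases form a single ring with 1 copy of each, and their 6 ratios here ranged from -0.45 to 0.30.

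The lid had a median of -0.02 over 8 genes, 4 of them above 0, and of 0.49 and 1.02 under the centrings. Psmd3, a lid subunit, had 15.73 and 15.65 in autoreactive cells, against 15.92 and 15.996 in non-autoreactive cells. The groups did not overlap, and its ratio was -0.27 ± 0.13 (adjusted p = 0.265 by limma). It was -0.55 with the deposited ratios (adjusted p = 0.124 by limma), the lowest of the 41 genes there. Psmd7, the inactive partner of the deubiquitinase Psmd14, had 13.03 and 12.91 in autoreactive cells, against 13.23 and 13.19 in non-autoreactive cells. The groups did not overlap, its ratio was -0.24 ± 0.12, and its 3 probes ranged from -0.24 to -0.13. Psmd14 itself had a mean of 0.03. Psmd11, whose human counterpart is known to promote proteasome assembly, had ratios of -0.03 and -0.45. Psmd8 had ratios of 0.05 and 0.31, a mean of 0.18 ± 0.13, and Psmd6, Psmd12 and Psmd13 stood at 0.02, -0.06 and 0.02. The other probes of Psmd12 gave 0.15 and 0.10.

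The chaperones that help assemble the base, Psmd5, Psmd9 and Psmd10, had means of 0.22, 0.02 and 0.27. They are not part of the finished proteasome. Psmd10 (gankyrin) had 11.90 and 12.18 in autoreactive cells, against 11.79 and 11.76 in non-autoreactive cells. The groups did not overlap, with ratios of 0.11 and 0.43 and a mean of 0.27 ± 0.14. Psmd5 had 13.55 and 13.63 in autoreactive cells, against 13.54 and 13.20 in non-autoreactive cells. Its ratio was 0.01 on array 1 and 0.44 on array 2, so the mean of 0.22 ± 0.15 rests on array 2.

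Activators dock to the core in place of the cap, and Psmf1 encodes an inhibitor (PI31). The median of these 5 genes was -0.04, or -0.02 on array 1 and 0.07 on array 2, and 0.55 and 1.09 under the centrings. Psme1, a subunit of the interferon-inducible activator PA28, had 15.35 and 15.07 in autoreactive cells, against 15.36 and 15.27 in non-autoreactive cells, a ratio of -0.11 ± 0.13. The probes named Psme2b-ps, a pseudogene, carry an accession of Psme2, the partner of Psme1, and the copies cannot be told apart here. The brighter one had 15.33 and 15.00 in autoreactive cells, against 15.18 and 15.24 in non-autoreactive cells, a ratio of -0.04 ± 0.14, with -0.05 for the second probe. The deposited ratios put these genes at -0.24 and -0.18. Psme3, which forms the nuclear activator PA28 gamma, had 11.32 and 11.07 in autoreactive cells, against 11.05 and 10.93 in non-autoreactive cells. Its groups did not overlap, with ratios of 0.27 and 0.14 and a mean of 0.20 ± 0.12 (adjusted p = 0.372 by limma). Psme4 (PA200), a single-chain activator, had 15.08 and 15.11 in autoreactive cells, against 15.20 and 14.94 in non-autoreactive cells, a ratio of 0.03 ± 0.14. Its groups overlapped, and its 3 tested probes gave 0.02 to 0.06. The brightest of them, which gave these intensities, carries no accession matched to a RefSeq gene, unlike the dimmer ones. Psmf1 had 10.35 and 10.24 in autoreactive cells, against 10.49 and 10.18 in non-autoreactive cells, and its 3 probes ranged from -0.04 to 0.04. Psmc3ip, no subunit, had 12.67 and 12.51 in autoreactive cells, against 12.75 and 12.48 in non-autoreactive cells, and its probes gave -0.02 and 0.07.

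The immunoproteasome genes Psmb8, Psmb9 and Psmb10 had ratios of -0.28, -0.40 and -0.25, none of them called (adjusted p = 0.276, 0.133 and 0.283 by limma), and all stood above 0 under median centring. The deposited ratios gave -0.46, -0.52 and -0.43. After loess, each was below 0 on both arrays, while the constitutive counterparts Psmb5, Psmb6 and Psmb7 stood at -0.11, 0.08 and -0.09. The difference between the sets was not tested. The autoreactive mice differ in the H-2 region of chromosome 17, where Psmb8 and Psmb9 start 0.20 and 0.19 Mb from H2-K1 (GRCm38.p6). Of the constitutive genes, Psmb1 lies on that chromosome, 18.5 Mb from H2-K1. No position is given here for Psmb10, and the part of the H-2 region in the immunoproteasome ratios was not tested. The Rag1 locus is on chromosome 2, which holds 6 of the genes, the nearest being Psmc3 at 10.6 Mb, and these 6 had a median of 0.00.

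Of 34 other genes around the proteasome found on the array, 32 were tested, and limma called 3 higher, against 3.49% of all genes, and 0 lower, against 2.6%, with a median of -0.01. The calls fell on ubiquitin genes and 1 transcription factor. Of the 3 genes for ubiquitin and its activation that are reported, a list that leaves out some of its genes, 2 were higher, against the same 3.49% of all genes. Rps27a, which encodes ubiquitin fused to a ribosomal protein, had 16.38 and 16.45 in autoreactive cells, against 15.45 and 15.24 in non-autoreactive cells, a ratio of 1.07 ± 0.13 (adjusted p = 0.0122 by limma). Ubb, a polyubiquitin gene, had 17.22 and 17.16 in autoreactive cells, against 16.33 and 16.42 in non-autoreactive cells, a ratio of 0.82 ± 0.13 (adjusted p = 0.0222 by limma). The groups did not overlap for either gene. Uba1, which activates ubiquitin, stood at 0.00. Ubiquitin genes share near-identical coding repeats, and how far their probes read each other was not tested. With the deposited ratios neither was called, at 0.76 for Rps27a and 0.30 for Ubb (adjusted p = 0.0755 and 0.301 by limma). With the channels fitted separately, which drops their pairing by array, both missed the threshold too (adjusted p = 0.0511 and 0.0808 by limma).

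Nfe2l2, a stress-activated factor known to raise proteasome genes, had 13.79 and 14.32 in autoreactive cells, against 13.07 and 13.08 in non-autoreactive cells. The groups did not overlap, and its ratio was 0.98 ± 0.16 (adjusted p = 0.0273 by limma). Its 4 probes ranged from 0.20 to 1.04, and the mean over them was 0.61 (adjusted p = 0.0623 by limma). With the deposited ratios it stood at 1.00 (adjusted p = 0.0538), and it also missed the threshold with no filter on dim probes (adjusted p = 0.0626) and with separate channels (adjusted p = 0.123, all by limma). Nfe2l1, which acts on proteasome genes when the protease is inhibited, stood at 0.07. Ngly1 and Ddi2, which process it, stood at 0.35 and -0.10. Stat3, whose ratios were -0.21 and -0.91, had a mean of -0.56 (adjusted p = 0.151 by limma) and was not called.

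None of the 10 tested genes for caps and assembly outside the naming rule was called. Pomp, the maturation factor of the core, had ratios of 0.28 and -0.29, a mean of -0.01. The chaperone genes Psmg1, Psmg2 and Psmg3, which the array lists as Dscr2, Tnfsf5ip1 and 1810042K04Rik, stood at 0.04, -0.13 and 0.07. The second probe of Psmg2 gave 0.11. Sem1, a small lid subunit listed as Shfm1, stood at 0.27. Psmb11, the beta subunit of thymic epithelium, listed as 5830406J20Rik, was not tested, as neither of its probes passed the filter on signal. None of the 11 shuttle and segregase genes was called either. Among these, Rad23b and Zfand2a were both at -0.41, Txnl1 at 0.32 and Vcp, the segregase, at -0.19. The second probe of Txnl1 gave -0.17, on the other side of 0, and the 4 probes of Rad23b ranged from -0.41 to -0.06.

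**Figure D4:**
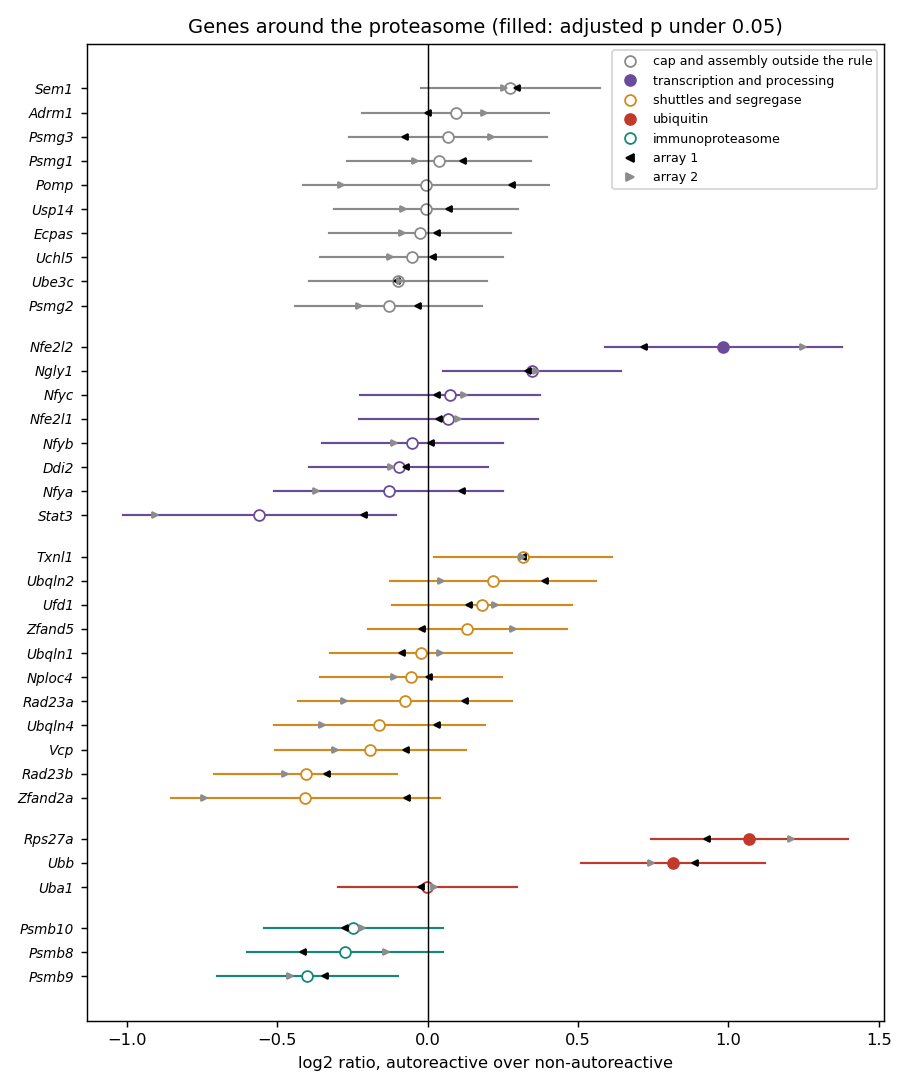
Log2 ratio of autoreactive over non-autoreactive cells for genes around the proteasome, with the 95% interval and both arrays (triangles pointing left for array 1 and right for array 2). Filled circles mark the 3 genes called by limma, Rps27a, Ubb and Nfe2l2; open circles are genes that were not called.

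The zero point of these ratios rests on the dye normalization. With each array centred on the median of all probes and no loess, 40 of 41 proteasome genes were called higher (limma), against 65.6% of all genes, and 0 lower, against 2.54%. The median was 1.02 for the proteasome genes and 0.58 for all genes. With centring on the tested probes, 23 were called higher, against 18.4% of all genes, and 1 (Psma8) lower, against 16.7%. The medians were then 0.48 for the proteasome genes and 0.04 for all genes. The probes of the proteasome genes are bright, their median lying above the intensity of 89.7% of all genes. The 2417 genes whose intensity lay between the quartiles of the proteasome genes had medians of 0.95 and 0.41 under these centrings, and -0.04 under loess. Relative to these, the proteasome median stood 0.07 higher under either centring and 0.06 higher under loess, but with the deposited ratios the difference was -0.02. Loess removes a change common to bright genes whatever its source, so a shift shared by them could not be measured apart from the dye.

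**Figure D5:**
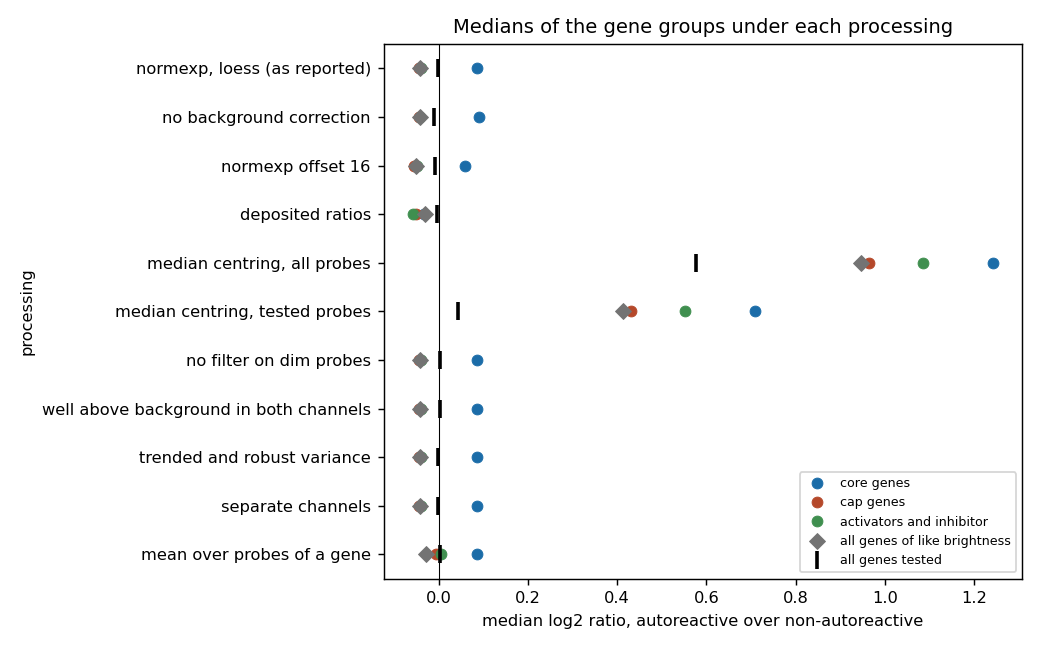
Median log2 ratio of core (blue), cap (red) and activator and inhibitor genes (green) under each processing, with the median of all genes tested (black bar) and of all genes of like brightness (grey diamond). Median centring moves the groups to between 0.43 and 1.24, together with genes of like brightness. The core lies above the cap by 0.13 under loess as reported, 0.28 under the centrings and 0.02 with the deposited ratios. Several settings share the same loess ratios, the core probes are brighter than the cap probes, and the gap was not tested.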

How the data were processed

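In the scanner files, each spot has a mean intensity and a median local background intensity per channel, made per the file headers with version 9.5.1.1 of Agilent Feature Extraction. A log10 ratio (red Cy5 over green Cy3) was deposited too, which that software took from signals after background subtraction and dye normalization, per the file headers. It was turned to log2 as an alternative. Per the labels, 0.5 ug of RNA per sample was amplified and labelled. The files name no genome build.

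Background correction was normexp (offset 50) and dye normalization loess, both in limma 3.58.1 (R 4.3.3), with no weight on control and outlier spots. Spots of a probe were averaged. The 22623 probes that Feature Extraction marks well above background in at least 1 channel of every array were tested two-sided against 0 (lmFit, eBayes), and p-values were adjusted over all of them by Benjamini-Hochberg, with calls under 0.05. With 1 residual and 5.08 prior degrees of freedom, the other probes' spread dominates each SE. Channel intensities were scaled with Aquantile. The limma step was tried on simulated ratios drawn from its own fitted spread, with no dye bias and no loess step. That trial cannot check the dye normalization, and its outcome is not given here.

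The genes and lists were chosen with earlier results of these data known. Named are the catalytic, activator, inhibitor, assembly and tissue-restricted genes, the 4 highest and 4 lowest genes of core and cap, and genes that differed most between arrays. Other genes of the rule are given by their means. Paaf1 and Psmg4 were not analysed here, and some genes of the ubiquitin list are not reported here.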

Additional observations from a re-analysis of the deposited data

How the results depend on the processing

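No result changed its direction or its side of the threshold without background correction or with normexp offset 16, and the counts of called proteasome genes stayed at 0 under every alternative but median centring. Centring on all probes called 40 genes higher and gave medians of 1.24 (core), 0.96 (cap) and 1.09 (activators and inhibitor). It turned Psma5 (1.08), Psmb5 (0.84), Psmb7 (0.70), Psmc1 (0.54), Psmc3ip (0.77), Psmd2 (0.72), Psmd3 (1.02), Psmd7 (0.62), Psme1 (1.09), Psme2b-ps (1.13), Psmf1 (0.53), Psmb8 (0.88), Psmb9 (0.76), Psmb10 (0.98) and Stat3 (0.10) to above 0. Centring on tested probes called 23 higher and 1 lower, with medians of 0.71, 0.43 and 0.55 for the same groups. It turned Psma5 (0.54), Psmb5 (0.31), Psmb7 (0.16), Psmc1 (0.0041), Psmc3ip (0.24), Psmd2 (0.18), Psmd3 (0.48), Psmd7 (0.086), Psme1 (0.55), Psme2b-ps (0.60), Psmb8 (0.34), Psmb9 (0.22) and Psmb10 (0.45). Centring moved the median tested probe by 0.53 on either array when set on all probes. The deposited ratios turned Psmb6 (-0.039), Psmc3ip (0.069) and Psme4 (-0.058), and the mean over probes turned Psmc3ip (0.026) and Psmf1 (0.0052). The cause was not tested. With an array left out there was no test: no proteasome gene reached 1.5-fold, and the medians ran from -0.03 to 0.15 (core), -0.10 to 0.01 (cap) and -0.019 to 0.066 (activators and inhibitor).

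The main test was paired by array, because each ratio sets the channels of an array against each other. No further pairing of pools was possible, as the labels number no non-autoreactive pools. Fitting the channels separately, which drops the pairing by array, called 0 proteasome genes. The number of arrays limits the precision, with SEs of 0.12 to 0.16 for the proteasome genes.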
